A study of Canis lupus familiaris with 12 samples.

Results

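To ask how nodal irradiation bears on cell division in the lymph node, 7 cell cycle and proliferation genes were followed in nodes of dogs with sinonasal cancer. They were taken by name from the 780 endogenous genes of a canine immuno-oncology panel, as MKI67, BIRC5 and every gene whose symbol starts with CDK, CCNA, CCNB, CCND or CCNE and a digit, or with E2F. This gave the proliferation marker MKI67, the mitotic genes CDK1 and BIRC5, and the G1 genes CDK4, CCND1, CCND2 and CCND3. The prefixes E2F, CCNA, CCNB and CCNE each matched 0 probes, so the cyclins that partner CDK1 and CDK2 were not analysed here.

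The tumors of all 6 dogs were treated with stereotactic body radiation therapy (SBRT), given as 3 fractions of 10 Gy. For 3 dogs the field also took in the submandibular and retropharyngeal nodes of both sides (elective nodal irradiation, ENI), and these are called irradiated nodes, whereas the nodes of the other 3 dogs lay outside the field and are called non-irradiated. Mandibular nodes of the tumor side were taken out 2 weeks after SBRT, per the study's methods, and nodes from before treatment were not analysed here. Ages were 7 to 14 years in the irradiated group (1 female, 2 males) and 3 to 9 years in the non-irradiated group (2 females, 1 male), all spayed or neutered, so age and ENI cannot be told apart. Each dog gave 2 samples, which makes 6 samples a group, and the labels do not say how the 2 samples of a dog differ.

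Transcripts were counted on the NanoString nCounter, which reads a fluorescent barcode bound to each RNA molecule without amplification. The values are 1 normalized count per gene and group, a geometric mean over samples printed here as the authors' mean. The SD deposited beside it is over the samples of the group. Values of single samples and their depth were not analysed here, so whether single samples of both groups overlap is unknown. In a whole node, fewer cells of a type and less RNA per cell cannot be told apart.

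Cells enter division when D-type cyclins activate CDK4 and CDK6, which phosphorylate the retinoblastoma protein and free E2F factors to switch on replication genes. CDK1 with its cyclins then drives entry into mitosis, and survivin, the product of BIRC5, helps chromosomes attach and segregate. In a lymph node most dividing cells are activated lymphocytes, above all germinal centre B cells, and ionizing radiation halts the cycle in part through the inhibitor CDKN1A.

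The labels name every sample a lymph node, while the extraction text speaks of frozen tumor. Genes of lymphocytes were measured at high levels. The authors' means of 10 B cell markers summed to 14569 normalized counts (irradiated) and 12234 (non-irradiated), and those of 12 T cell markers to 12847 and 16860. For 7 epithelial markers the sums were 602 and 551, with MUC1 under 20 in both groups. No marker was listed at 0.

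The mitotic genes had the largest ratios of the 7 members, at 2.46-fold for CDK1 and 1.92-fold for BIRC5 in irradiated over non-irradiated nodes. The G1 genes lay near 1, with CDK4 at 1.14-fold higher and the 3 D cyclins at 1.04-fold to 1.17-fold lower, and MKI67 was at 1.06-fold. None of the 7 passed the test. By limma on variances recovered from the SDs, 0 of 7 had an adjusted p under 0.05, against 3.59% of all endogenous genes (28 of 780, 13 higher and 15 lower).

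CDK1 encodes the kinase that starts mitosis. Its authors' mean was 1304 normalized counts (authors' SD 526) for irradiated and 529 (authors' SD 560) for non-irradiated nodes. The SD of the non-irradiated group was larger than its geometric mean. The range of 1 SD around the authors' mean ran from 778 to 1830 in irradiated nodes. In non-irradiated nodes it ran from below 0 to 1089, and these ranges overlapped. The log2 ratio was 1.30 ± 0.41 (SE over samples), the 5th highest of 780, with a 95% interval of 0.41 to 2.19. The adjusted p was 0.0825, and it ranged from 0.0755 to 0.597 over the alternatives.

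BIRC5 encodes survivin, an inhibitor of apoptosis that is made mainly in G2 and mitosis. Its authors' mean was 935 normalized counts (authors' SD 332) for irradiated and 486 (authors' SD 272) for non-irradiated nodes. The ranges of 1 SD, 602 to 1267 and 214 to 759, overlapped here too. The log2 ratio was 0.94 ± 0.31 (SE over samples), the 12th highest of 780, with a 95% interval of 0.28 to 1.60 and an adjusted p of 0.0894 (0.0796 to 0.647 over the alternatives).

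CDK1 and BIRC5 were the 2 members with an unadjusted p under 0.05, at 0.00719 and 0.00825, both of them higher in irradiated nodes. Of all endogenous genes 8.46% (66 of 780) were higher at that unadjusted p, and the p of CDK1 ranked as the 68th smallest. These p-values take the 2 samples of a dog as independent, so they are too small, and all intervals given here too narrow, if both samples of a dog are alike. By how much could not be computed, since group values do not show how alike they are, and no comparison was tested on values of single dogs. In the limiting case of identical samples of a dog, no endogenous gene passed an adjusted p of 0.05.

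**Figure D1:**
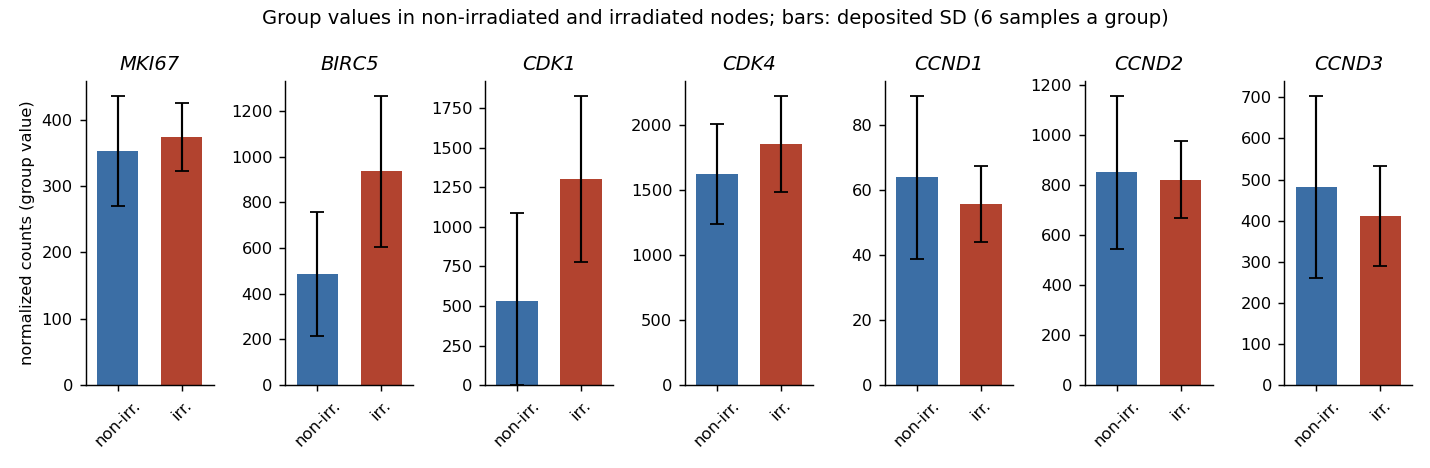
Authors' means in normalized counts (linear axis from 0, one scale per gene) of the 7 members in non-irradiated (blue) and irradiated (red) nodes, with error bars of 1 deposited SD over the 6 samples of a group; the lower bar of CDK1 in non-irradiated nodes stops at 0. CDK1 and BIRC5 show the largest steps, 529 to 1304 and 486 to 935, while the bars of all 7 genes overlap between groups.

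MKI67 encodes Ki-67, the antigen that pathologists stain to count dividing cells. Its authors' mean was 374 normalized counts (authors' SD 51.1) for irradiated and 353 (authors' SD 83.6) for non-irradiated nodes, with 1 SD ranges of 323 to 425 and 269 to 436. The irradiated range lay inside the non-irradiated one. The log2 ratio was 0.08 ± 0.17 (SE over samples, adjusted p = 0.845), and its 95% interval allowed from 1.22-fold lower to 1.37-fold higher in irradiated nodes. The intervals of CDK1 and MKI67 overlapped (0.41 to 2.19 against -0.29 to 0.45), and the difference between their ratios was not tested, since it needs the values of both genes in each sample.

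CDK4, the kinase that D cyclins activate in G1, had an authors' mean of 1857 normalized counts (authors' SD 372) for irradiated and 1625 (authors' SD 388) for non-irradiated nodes. The 1 SD ranges were 1485 to 2230 and 1238 to 2013 and shared most of their length. Its log2 ratio was 0.19 ± 0.19 (SE over samples, adjusted p = 0.593), with an interval from 1.16-fold lower to 1.51-fold higher.

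All 3 D cyclins were slightly lower in irradiated nodes. CCND3, the D cyclin that germinal centre B cells depend on in mice, had an authors' mean of 412 normalized counts (authors' SD 122) against 483 (authors' SD 221), a log2 ratio of -0.23 ± 0.27 (SE over samples, adjusted p = 0.680). CCND2, which is induced by antigen receptor signals in B cells, had 823 (authors' SD 154) against 852 (authors' SD 307), a ratio of -0.05 ± 0.22 (SE over samples, adjusted p = 0.936). CCND1, a D cyclin of stromal and epithelial cells that normal lymphocytes scarcely make, was the lowest member at 55.8 (authors' SD 11.7) against 64.0 (authors' SD 25.2), with a ratio of -0.20 ± 0.23 (SE over samples, adjusted p = 0.680). For each of the 3 the 1 SD range of irradiated nodes lay inside that of non-irradiated nodes.

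The errors leave room for moderate changes of these cyclins in either direction. The 95% intervals reached 1.75-fold lower and 1.27-fold higher for CCND3, 1.43-fold lower and 1.34-fold higher for CCND2, and 1.62-fold lower and 1.23-fold higher for CCND1. Although all 3 pointed the same way, 428 of 780 endogenous genes were also lower in irradiated nodes, and the log2 ratio of CCND2 was at the median of all endogenous genes, -0.05, so that it came to -0.00 with the genes centred on that median.

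**Figure D2:**
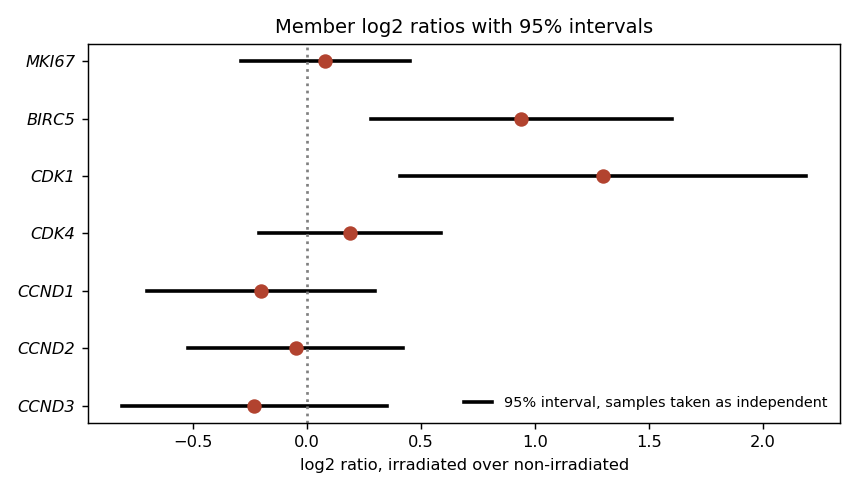
Log2 ratio (irradiated over non-irradiated) of each member on the x axis (red points), with the 95% interval from limma (black line), which takes the 2 samples of a dog as independent. Before any adjustment over genes the intervals of CDK1 and BIRC5 start above 0, at 0.41 and 0.28, and those of the other 5 members span 0.

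Over the members, 4 were higher and 3 lower (57.1% higher, against 45.1% of endogenous genes), and the median log2 ratio was 0.08 against -0.05. The mean was 0.29, pulled up by CDK1 and BIRC5. For 0 of 7 members the ranges of 1 SD around the group means were apart, against 8.59% (67) of the 780 endogenous genes. Those 67 included the cycle genes CDKN1A and PCNA, whose ratios were smaller than that of CDK1 and whose values follow further on.

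**Figure D3:**
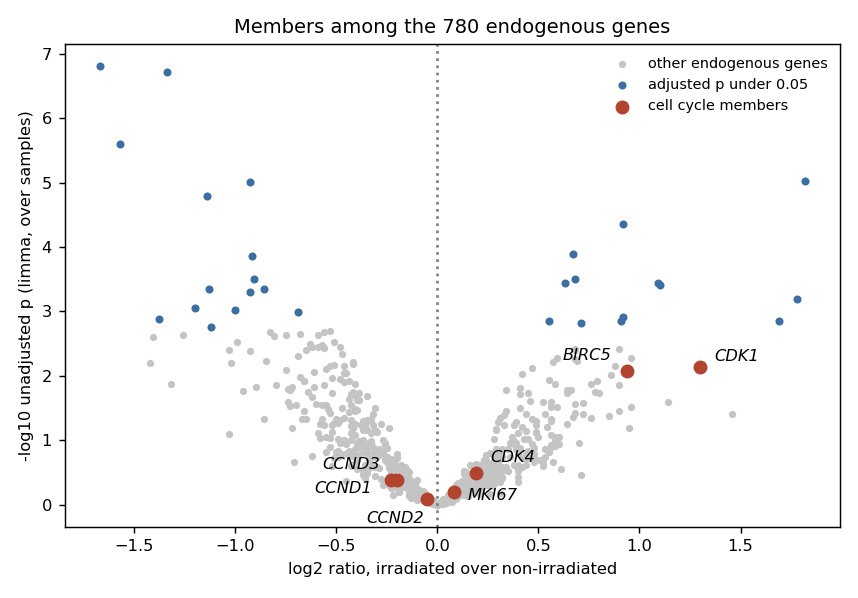
Each point is 1 of 780 endogenous genes, with its log2 ratio (irradiated over non-irradiated) on the x axis and -log10 of its unadjusted limma p on the y axis; blue points have an adjusted p under 0.05 and the 7 members are red. CDK1 and BIRC5 stand at 1.30 and 0.94 below the blue points, and the other 5 members lie near the origin.

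A smaller relative spread in irradiated nodes was common to all members. Relative to the group mean, the SD was smaller in irradiated than in non-irradiated nodes for 7 of 7 members. This was also the case for 65.4% (510) of the 780 endogenous genes. The group mean is geometric and lies below the arithmetic mean, so these percentages run high, most where the spread is wide. The largest step was in CDK1, whose SD was 106% of the mean in non-irradiated and 40.4% in irradiated nodes. In non-irradiated nodes this was the 15th largest relative SD of all 780 endogenous genes. In irradiated nodes the relative SD of CDK1 was the 127th largest. By the ratio of its 2 percentages, the reduction of CDK1 ranked only 157th of 780.

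BIRC5 went from 56.0% in non-irradiated to 35.5% in irradiated nodes and CCND3 from 45.8% to 29.5%. CCND1 (39.4% and 21.0%) and CCND2 (36.1% and 18.7%) showed nearly the same pair of values as each other. MKI67 went from 23.7% to 13.7%, and CDK4 changed least, from 23.9% by a factor of 1.19. The median over endogenous genes was 32.2% in non-irradiated and 22.9% in irradiated nodes, so MKI67 and CDK4 were less variable than the median gene in both groups. In absolute terms the SD was smaller in irradiated nodes for 6 members and larger for BIRC5 (332 against 272 normalized counts).

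The difference in spread was not tested, since a group of 3 dogs gives 3 independent values at most and the values of single samples were not analysed here. A large SD may come from 1 dog or from several, which the group SD does not show.

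**Figure D4:**
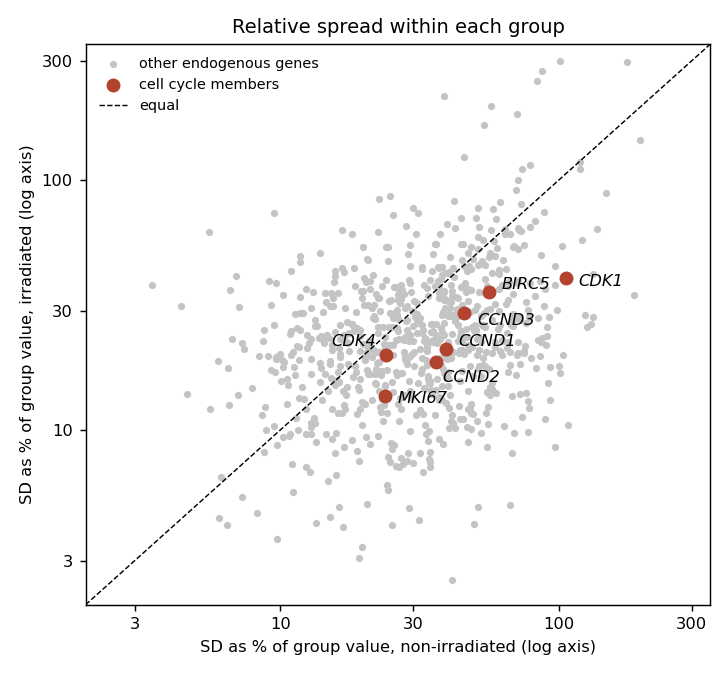
Deposited SD as a percentage of the authors' mean in non-irradiated (x axis) and irradiated nodes (y axis), both log axes, for the 7 members (red) and the other endogenous genes (grey), with a dashed line where both are equal. All 7 members lie below the line, CDK1 farthest to the right at 106% and 40.4%.

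To set the members in the wider cycle, 5 lists of 101 cell cycle genes were read from the same comparison, of which 19 were on the panel. The ratio was above 1 for 12 of them and below 1 for 7, and 4 rose and 1 fell by the adjusted p. Of all 780 endogenous genes 45.1% had a ratio above 1 and 3.59% (28) passed the adjusted p. The lists were written with earlier results of these data known, so their counts are not evidence of an excess of cell cycle genes. Rose and fell stand for a difference between the groups, not for a change over time. These calls too take the 2 samples of a dog as independent. None of them held in the limiting case of identical samples of a dog, and they were not tested on values of single dogs.

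Among 7 inhibitors and brakes of the cycle, 1 rose and 0 fell (median log2 ratio 0.16). CDKN1A, which blocks cyclin-dependent kinases, rose from an authors' mean of 197 (authors' SD 31.9) to 371 normalized counts (authors' SD 58.1), a log2 ratio of 0.92 ± 0.16 (SE over samples, adjusted p = 0.00485). CDKN2B, an inhibitor of CDK4 and CDK6, had a ratio of 0.45 ± 0.17 (SE, adjusted p = 0.131). The retinoblastoma gene RB1, whose protein CDK4 phosphorylates, had a ratio of -0.11 ± 0.14 (SE, adjusted p = 0.719). Thus the inhibitor CDKN1A and the mitotic kinase CDK1 were both higher in the irradiated group, of which CDKN1A passed the test and CDK1 did not.

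Both replication genes were higher, and 1 of them rose (median 0.47). PCNA, the sliding clamp of DNA polymerase, rose from an authors' mean of 589 (authors' SD 68.2) to 913 normalized counts (authors' SD 91.5), a log2 ratio of 0.63 ± 0.14 (SE over samples, adjusted p = 0.0215), though not by Benjamini-Yekutieli adjustment (0.156). TYMS, which makes thymidylate for DNA synthesis, had 242 (authors' SD 98.5) and 300.5 (authors' SD 41.6), a ratio of 0.31 ± 0.23 (SE, adjusted p = 0.451). The ratio of PCNA was under that of CDK1, but its SD was 10.0% and 11.6% of the means.

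Of 7 genes of the DNA damage checkpoint and repair, 6 were higher and 2 rose (median 0.47). One of them was BRCA2, which acts in repair by homologous recombination. It rose from an authors' mean of 55.4 (authors' SD 6.15) to 88.2 normalized counts (authors' SD 5.0), a log2 ratio of 0.67 ± 0.13 (SE over samples, adjusted p = 0.0120). Its call ended with Benjamini-Yekutieli adjustment (0.0872). The checkpoint kinase CHEK2 had a ratio of 0.68 ± 0.29 (SE, adjusted p = 0.196), and like CDK1 and TYMS it varied widely in non-irradiated nodes, with an SD of 61.6% of the mean against 20.8% in irradiated nodes.

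The 3 growth-related transcription factors measured were all lower, and 1 fell. FOS, an immediate early gene, fell by 1.38 on the log2 scale (± 0.35 SE over samples, adjusted p = 0.0419), from an authors' mean of 1409 (authors' SD 722) to 540 normalized counts (authors' SD 318). Its call ended under 5 alternatives, at adjusted p-values of 0.0507 to 0.303. EGR1, also an immediate early gene, had a ratio of -0.99 ± 0.27 (SE, adjusted p = 0.0600), and MYC, which drives D cyclin and CDK4 expression in many cells, -0.33 ± 0.15 (SE, adjusted p = 0.228). Of the list of 31 mitosis genes 0 were on the panel, which leaves CDK1 and BIRC5 as the mitotic genes measured.

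**Figure D5:**
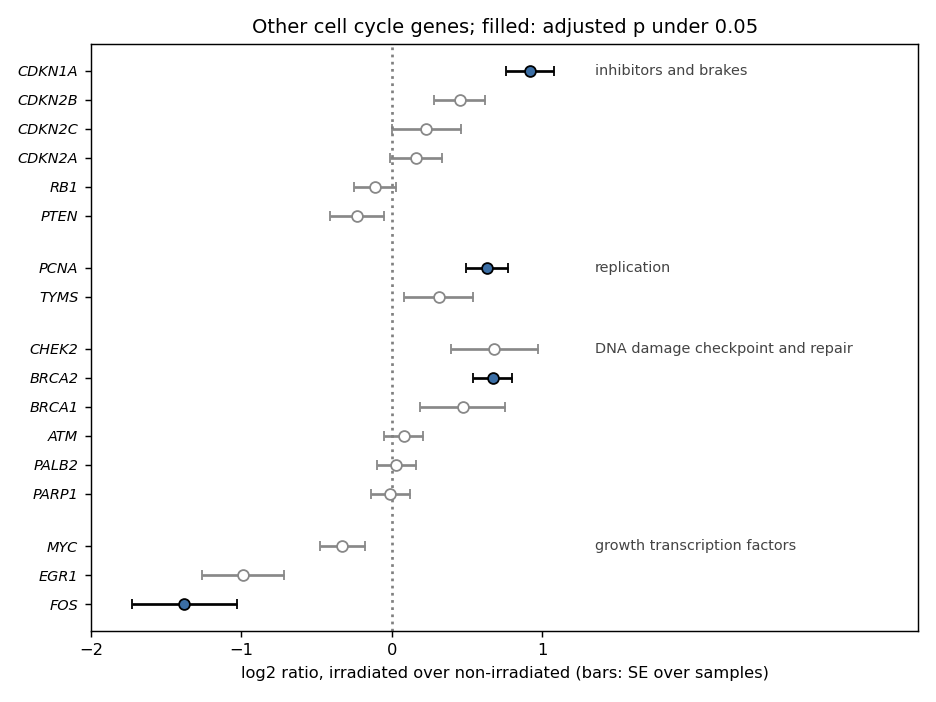
Log2 ratio (irradiated over non-irradiated) with its SE over samples for 17 measured genes of 4 cell cycle lists, named at the right of each block; filled points have an adjusted p under 0.05. Of the filled points CDKN1A, PCNA and BRCA2 lie above 0 and FOS below it.

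The levels of cell type markers in both groups are given beside the members. Those of B cells were higher for 9 of 10 genes (0 called), with the sums given above. The 4 germinal centre markers summed to 18088 normalized counts (irradiated) and 10251 (non-irradiated), nearly all of it the chemokine CXCL13 at 17547 and 9724, and 2 of the 4 were higher (0 called). BCL6, the master factor of germinal centre B cells, was at 123 (authors' SD 21.0) and 139 (authors' SD 13.3). The 4 plasma cell markers summed to 2871 and 1639 and were all higher (0 called). Of the T cell markers 9 of 12 were lower (0 called). Among all 780 endogenous genes 45.1% were higher and 3.59% called.

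Cytotoxic markers summed to 2425 in irradiated and 3187 in non-irradiated nodes, with 8 of 11 lower (1 called higher, 1 called lower). Macrophage markers were at 6593 and 9427 (8 of 10 lower, 0 called) and dendritic cell markers at 2781 and 3413 (6 of 7 lower, 0 called). Endothelial markers were at 2382 and 3032 (5 of 5 lower, 1 called), and fibroblast and stroma markers at 4772 and 8163 (4 of 7 lower, 3 called). Of the epithelial markers 5 of 7 were higher, and KRT18, a keratin of simple epithelia, was the 1 called, at 153 (authors' SD 61.8) against 71.5 (authors' SD 14.3). The part of these cell types in the ratios of CDK1, BIRC5 and the other members was not tested.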

How the data were processed

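RNA of 12 lymph node samples from 6 dogs was measured by the authors on the NanoString Canine IO 360 panel (780 endogenous and 20 housekeeping genes) and analysed in nSolver. For its version, background and normalization, the settings were not given in the sources used here. The deposited signal is 1 normalized count per probe and group, with an SD. The 20 housekeeping log2 ratios averaged -2.62e-05, as scaling to these genes gives when group values are geometric means. The deposited table also holds the authors' own comparison (fold, call, p-value, 95% limits and adjusted p-value), and these columns were not used.

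The log2 variance of each group was computed from its mean and SD for a log-normal spread, averaged over both groups (10 residual degrees of freedom), moderated across the 780 genes with limma 3.58.1 (R 4.3.3) and tested two-sided. P-values were adjusted over all 780 genes by Benjamini-Hochberg, with a threshold of 0.05. Intervals are at 95%. The fit takes the 6 samples of a group as independent, although they came from 3 dogs, so its p-values are too small where the 2 samples of a dog are alike. The procedure was tested on simulated data of 6 independent samples a group with a log-normal spread. That test did not cover likeness between the 2 samples of a dog. Tables and figures were made with Python 3.11.15, pandas 2.3.3, scipy 1.17.1 and matplotlib 3.10.9.

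All members are named. Of each cell cycle list, the genes called and the 3 with the largest ratios in size are named, and RB1, BCL6, CXCL13, MUC1 and KRT18 were added after their values were seen. Some genes that this rule names are counted but not reported here. The members, lists and markers were chosen with earlier results of these data known. Alternatives were other scalings, pseudocounts, a minimum of 20 normalized counts, other variance models and other adjustments.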

Additional observations from a re-analysis of the deposited data

How the results depend on the processing

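Of the 11 alternatives run, only centring on the housekeeping median or on the endogenous median could change the direction of a ratio. Under both, each of the 7 member ratios kept its direction, so the number of members higher stayed at 4. Each member kept its side of the threshold under the 9 alternatives that gave an adjusted p. Without adjustment 2 members passed, CDK1 and BIRC5. Against 28 endogenous genes past the threshold, the delta method gave 16, Benjamini-Yekutieli adjustment 7 and unadjusted p-values 171. A minimum of 20 normalized counts and moderation with a trend gave 38 each. Without moderation 35 passed, but only 20 of the 28 were among them. With unequal variances 29 passed, with 17 of the 28 among them. Centring on the housekeeping median gave 27, on the endogenous median 25, and including housekeeping genes 30. The adjustments differ in strictness. From the same mean and SD, the delta method computes a larger log2 variance than the log-normal form, with the ratios unchanged. The share of endogenous genes higher was 50.0% when centred on their median, as that centring fixes it, and 47.9% on the housekeeping median. Leaving out a sample or a dog was not run, since only group values were used. The planned case of identical samples of a dog is left out of the counts above, since it sets the number of values and the degrees of freedom by hand. In that limiting case no endogenous gene passed the threshold. How alike the 2 samples of a dog are is unknown, so whether any call would hold across dogs could not be settled. No paired analysis was possible because irradiated and non-irradiated nodes came from different dogs and each column is a group value. All 7 members lay above 20 normalized counts, while 61 endogenous genes lay under it. With 3 dogs a group, changes of the D cyclins or MKI67 within their intervals could not be detected.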
